A study of Mus musculus with 3 samples.

Results

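Transcripts of cholesterol and fatty acid synthesis were followed through 3 single-cell libraries of mouse liver. The set held 35 of the 55357 genes listed in the count matrices, taken by gene symbol, and all 35 were found. They comprised 17 enzymes of cholesterol synthesis, 12 genes of fatty acid synthesis and 6 regulators of the SREBP transcription factors.

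Hepatocytes build cholesterol from acetyl-CoA through mevalonate, farnesyl pyrophosphate, squalene and lanosterol, and build fatty acids from the same acetyl-CoA through malonyl-CoA. Both routes are driven by SREBPs, membrane-bound factors that are escorted from the endoplasmic reticulum by SCAP, retained there by the INSIG proteins when sterols are plentiful, and cut free in the Golgi apparatus. SREBP-2, the product of Srebf2, acts mainly on cholesterol genes, whereas the SREBP-1c form of Srebf1 acts mainly on fatty acid genes and responds to insulin.

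All mice were wild-type C57BL/6 males aged 8 weeks at the start. The control group (CON) was left untreated. No feeding or holding time is recorded for it, so whether its age at collection matched that of the other groups is not known. The HFD group received a diet with 60% of its calories as fat for 4 months, a model of metabolic dysfunction-associated steatohepatitis. The CCL4 group received chow for 3 months and then 0.1 mL of a 10% solution of carbon tetrachloride (CCl4), a hepatotoxin, by intraperitoneal injection 2 times per week for 4 weeks, a model of fibrosis. Each condition was 1 library from 2 pooled mice, with hepatocytes and non-parenchymal cells combined in equal numbers, so that no value carries an error between mice and no test between conditions could be made. Intervals given in parentheses are 95% intervals for counting error only.

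The libraries held 34061186 to 49613255 UMIs (unique molecular identifiers, 1 per captured RNA molecule) over 11205 to 12982 cells. Hepatocyte-like cells numbered 4965 in the control library, 6373 on the HFD and 7036 with CCL4, and each of their 7 clusters had at least 6 of 12 hepatocyte markers raised. The clusters were named with these same markers, so that count is not separate support for the name. Control hepatocyte-like cells lay in clusters led by Mt1, Saa2 and Saa3 (3431 cells) and by Il1r1 and Steap4 (1532 cells). HFD cells lay in clusters led by Acaa1b and Inmt (5189 cells), by Cyp1a2, Slc1a2 and Glul (608 cells) and by Foxq1, Scd1 and Cyp7a1 (564 cells). CCL4 cells lay in clusters led by Hamp2 and Angptl8 (3965 cells) and by G6pc and Cyp2b9 (2819 cells), with 227 cells in the Foxq1 cluster. As hardly any cluster was shared, a cluster could not be told apart from its library. Most hepatocyte-like droplets carried little mitochondrial RNA, and results are therefore also given for the mitochondria-rich clusters alone, whose cells took a median of 2% or more of their UMIs from mitochondrial genes. These held 1534, 1178 and 3055 cells, or 30.9%, 18.5% and 43.4% of the hepatocyte-like cells. Depth differed between the libraries too. Median UMIs per cell were 3804, 2292 and 2287.5 over all hepatocyte-like cells and 8277.5, 3633 and 3296 in the mitochondria-rich clusters. Apart from a limit of 2000 UMIs per cell, the part of depth in the ratios to the control was not tested. Malat1, a nuclear RNA, had 262, 222 and 734 CPM in the mitochondria-poor clusters of the control, HFD and CCL4 libraries. In mitochondria-rich clusters it had 2686 CPM in the control, 1196 and 3046 CPM on the HFD, and 1669 and 4787 CPM with CCL4. In the control library, Alb had 7126 CPM in the mitochondria-poor and 26967 CPM in the Il1r1 cluster. Whether the mitochondria-poor droplets held intact cells was not tested. RNA outside the cells was abundant. T cell-like cells, which should lack hepatocyte transcripts, had the 12 hepatocyte markers at a median of 0.31 of the hepatocyte-like level in the control library, 0.70 on the HFD and 0.72 with CCL4. Between 36 and 52 barcodes were shared by any pair of libraries.

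In both models the cholesterol arm stood below the control and the fatty acid arm above it. In hepatocyte-like cells, the summed level of the 17 cholesterol synthesis genes was 6606 CPM (counts per 1e6 UMIs of the class) in the control, 2181 under HFD feeding and 1158 after CCL4, which was 3.03-fold lower (3.00 to 3.06) and 5.71-fold lower (5.63 to 5.79) than the control. The summed level of the 12 fatty acid synthesis genes was 3257 CPM in the control, 16471 under HFD feeding and 6040 after CCL4, or 5.06 times (5.02 to 5.09) and 1.85 times (1.84 to 1.87) the control. Scd1 supplied most of that sum, and without it the levels were 1009, 2691 and 1780 CPM, or 2.67 times and 1.76 times the control. Both comparisons share the control library.

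**Figure D1:**
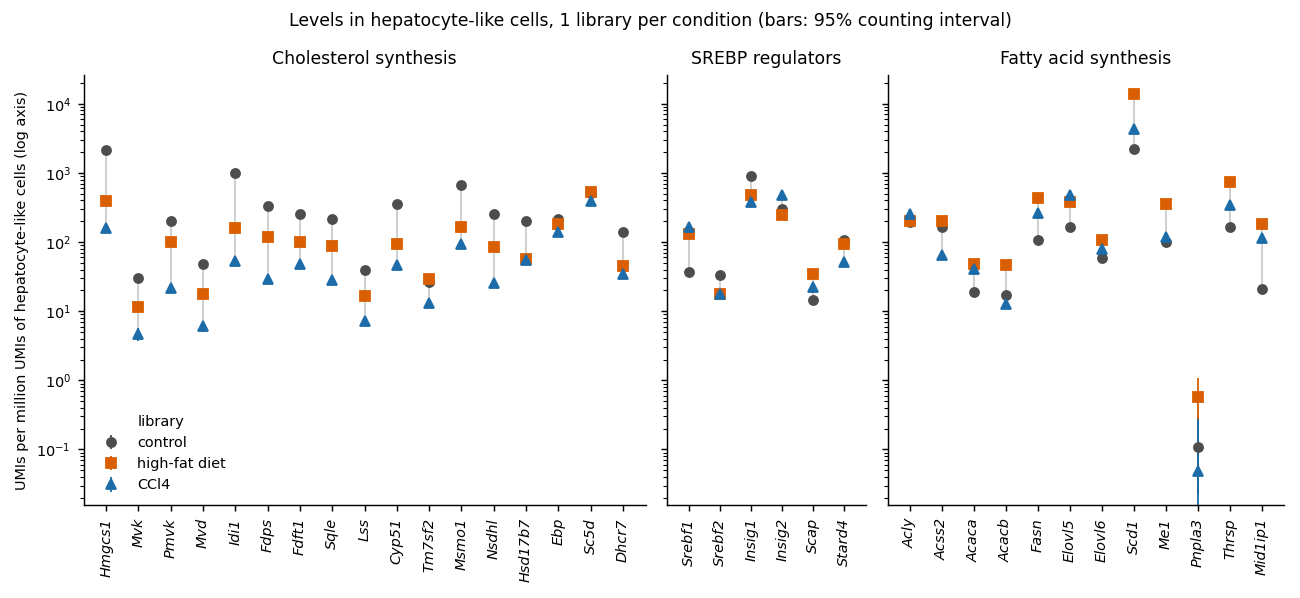
CPM of the 35 genes (log axis) in hepatocyte-like cells of the control, HFD and CCL4 libraries, with 95% counting intervals that are mostly smaller than the symbols. Control symbols are the highest for most cholesterol synthesis genes and the CCL4 symbols the lowest, whereas the HFD symbols are the highest for Scd1, Fasn, Me1, Thrsp and Mid1ip1.

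In the HFD library, 14 of the 17 cholesterol synthesis genes were at least 2-fold lower than in the control and none was at least 2-fold higher. Over all 6710 genes with at least 10 CPM in either library, 6.45% were at least 2-fold lower and 5.68% at least 2-fold higher. The median ratio of the 17 genes was 0.37, beside 1.02 over all genes. In the CCL4 library, 15 of the 17 were at least 2-fold lower and none was at least 2-fold higher, beside 6.83% lower and 7.47% higher of 6776 genes, and the median ratio was 0.14 beside 1.00. Mitochondria-rich clusters gave 13 and 15 genes at least 2-fold lower, beside 5.28% and 6.96% of all genes, and mitochondria-poor clusters 12 and 14, beside 4.83% and 7.72%.

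**Figure D2:**
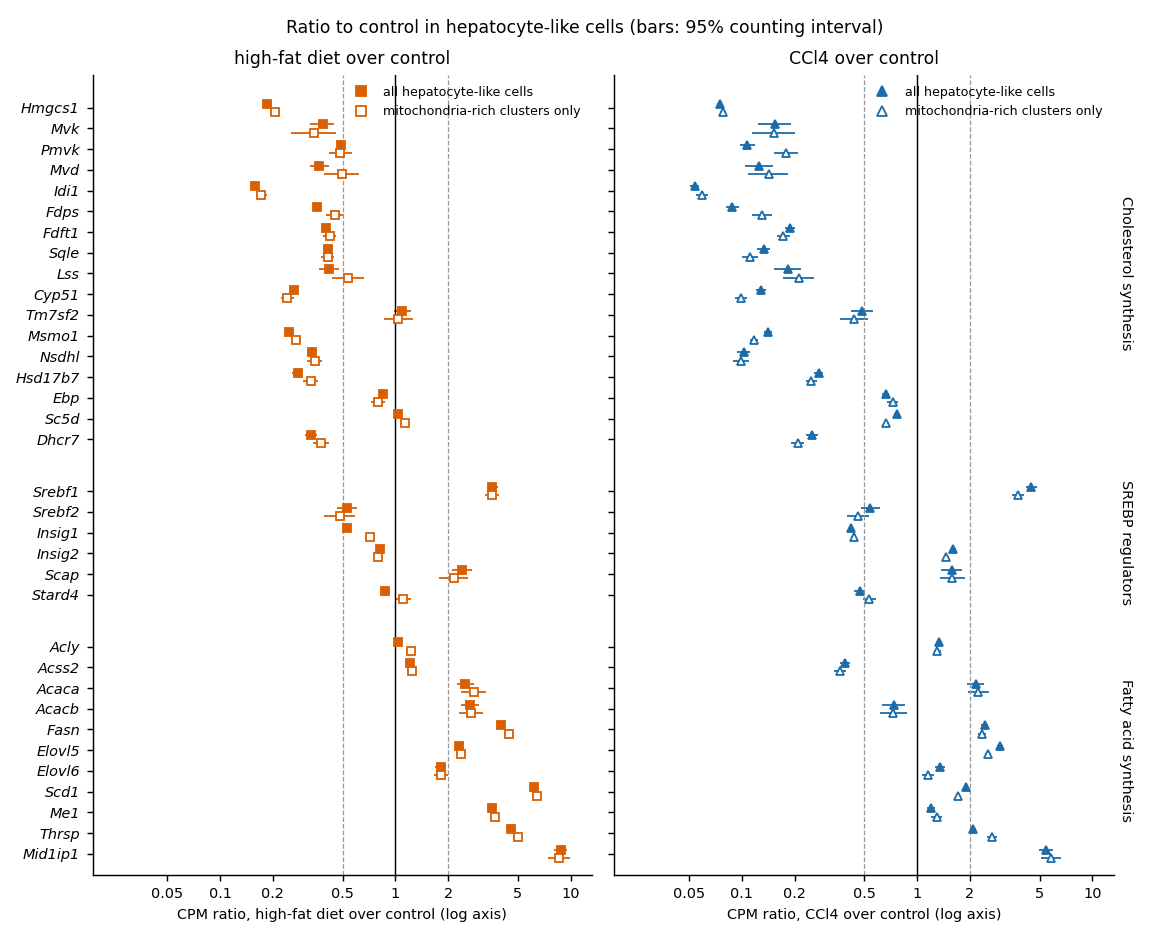
Ratio of CPM to the control (log axis) for 34 genes in the HFD library (left) and the CCL4 library (right), over all hepatocyte-like cells (filled) and over the mitochondria-rich clusters alone (open), with 95% counting intervals and dashed lines at 2-fold. Cholesterol synthesis genes lie to the left of 1 in both panels except Tm7sf2 and Sc5d on the HFD, and 8 fatty acid synthesis genes lie beyond 2-fold on the HFD.

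Hmgcs1 and Idi1, whose products act ahead of farnesyl pyrophosphate, held the largest differences of the arm. Hmgcs1, which encodes the cytosolic HMG-CoA synthase, had 2119 CPM in the control, 390 under HFD feeding and 158 after CCL4, and was 5.43-fold lower (5.30 to 5.57) and 13.4-fold lower (12.9 to 13.9). Idi1, the isomerase that makes the allylic isoprenoid unit, had 995, 157 and 53.6 CPM, and was 6.33-fold lower (6.08 to 6.58) and 18.6-fold lower (17.5 to 19.7). For both genes the control stood far above the other 2 libraries, and no counting intervals overlapped. Mitochondria-rich clusters gave Hmgcs1 at 2491, 512 and 195 CPM and Idi1 at 1023, 175 and 60.6 CPM, the same order.

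The start of both genes is shown because they had the largest differences of the arm, and because SREBP sites lie in promoters. The sequences are from RefSeq (GRCm38.p6) and run from 250 bases before the gene start to 50 bases after it, 5′ to 3′. Capitals mark the sterol regulatory element core TCACNCCAC and the CCAAT box, the site of the SREBP partner NF-Y, on either strand.
Hmgcs1, chr13:119690101-119690400, plus strand: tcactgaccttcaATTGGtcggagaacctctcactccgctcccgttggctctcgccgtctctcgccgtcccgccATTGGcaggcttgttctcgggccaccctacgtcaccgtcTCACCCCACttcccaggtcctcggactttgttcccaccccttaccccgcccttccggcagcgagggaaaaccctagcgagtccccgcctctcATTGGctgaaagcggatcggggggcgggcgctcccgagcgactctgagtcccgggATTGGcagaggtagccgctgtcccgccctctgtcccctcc
Idi1, chr13:8885356-8885655, plus strand: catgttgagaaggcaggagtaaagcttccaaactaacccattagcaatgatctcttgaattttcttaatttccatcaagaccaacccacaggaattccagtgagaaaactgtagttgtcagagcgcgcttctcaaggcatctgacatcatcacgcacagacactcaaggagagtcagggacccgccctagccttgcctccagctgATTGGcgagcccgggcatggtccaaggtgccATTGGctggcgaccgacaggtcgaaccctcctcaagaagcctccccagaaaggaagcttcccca
Of the 35 genes, 30 had a promoter sequence in the table. The letters TCACNCCAC occurred in 1 of them, Hmgcs1, and in 1.24% of 32851 promoters. CCAAT occurred in 26 of the 30 and in 37.4% of all promoters, including all 14 cholesterol synthesis promoters with sequence. GGGCGG, the Sp1 site, occurred in 23 of the 30 and in 35.7% of all promoters, and CACGTG, an E-box, in 6 of the 30 and in 7.15%. These are matches of letters only.

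Between Hmgcs1 and Idi1 in the pathway stand the kinases and the decarboxylase of mevalonate. Mevalonate kinase (Mvk) had 29.9, 11.5 and 4.64 CPM in the control, HFD and CCL4 libraries. Phosphomevalonate kinase (Pmvk) had 203, 99.0 and 21.9 CPM, and the decarboxylase Mvd had 48.5, 17.9 and 6.10 CPM. All 3 were lower in both models, with CCL4 the lowest. Pmvk was 2.05-fold lower on the HFD and 9.27-fold lower with CCL4. In the mitochondria-rich clusters its control level was 93.5 CPM, and it was 2.06-fold and 5.59-fold lower.

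Fdps, which makes farnesyl pyrophosphate, had 335, 119 and 29.6 CPM, 2.82-fold lower (2.68 to 2.96) and 11.3-fold lower (10.4 to 12.3). It was among the leading genes of the control cluster with Mt1 and Saa2, where it reached 509 CPM, and stood at 158 CPM in control mitochondria-rich cells. Fdft1, the squalene synthase, had 254, 102 and 48.1 CPM. Sqle, the squalene epoxidase and a rate-limiting step, had 214, 88.1 and 28.5 CPM, and Lss, the lanosterol synthase, 39.9, 16.8 and 7.32 CPM. The squalene steps thus stood between 2.38-fold and 2.50-fold lower on the HFD and between 5.29-fold and 7.50-fold lower with CCL4.

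Beyond lanosterol, the enzymes divided. Cyp51, the lanosterol demethylase, had 360, 95.05 and 46.5 CPM, and Msmo1, the sterol C4 oxidase, 666, 165 and 94.2 CPM. Nsdhl and Hsd17b7, which act with Msmo1 in removing the C4 methyl groups, had 252, 83.6 and 25.9 CPM and 203, 56.3 and 55.8 CPM. Over all hepatocyte-like cells, these 4 were at least 3-fold lower in both models. On the HFD they were 2.07-fold to 2.63-fold lower in mitochondria-poor clusters, and Nsdhl was 2.89-fold lower in mitochondria-rich ones. Hsd17b7 was the exception to the order, since its HFD and CCL4 levels did not differ beyond counting error (CCL4 over HFD 0.99, 0.91 to 1.08). In mitochondria-rich clusters they did (0.76, 0.68 to 0.85). Dhcr7, the final reductase, had 139, 45.7 and 35.04 CPM. On the HFD, Dhcr7 and Sqle were less than 2-fold lower when only mitochondria-poor clusters were compared, at ratios of 0.67 and 0.66, and Lss was less than 2-fold lower in the mitochondria-rich ones, at 0.54.

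Ebp, Sc5d and Tm7sf2 stood closer to the control. Ebp, the sterol isomerase, had 212, 180 and 141 CPM. Sc5d, the sterol C5 desaturase, had 509, 524 and 388 CPM. Tm7sf2, a sterol C14 reductase, had 26.8, 29.4 and 13.0 CPM. On the HFD, none of the 3 differed from the control by 2-fold, and Tm7sf2 did not differ beyond counting error (ratio 1.10, 0.98 to 1.23). With CCL4, Tm7sf2 was 2.06-fold lower, just past the threshold and within it in mitochondria-poor clusters, and Ebp (0.66 of the control) and Sc5d (0.76 of the control) differed by less than 2-fold.

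To gauge RNA from outside the cells, the level in T cell-like cells of the same library was subtracted. This takes such RNA to be the same share of UMIs in both classes of each library, which was not tested. Any transcripts of the T cell-like cells themselves were taken off with it. What remained of the cholesterol arm was 0.135 of the control on the HFD and 0.0903 with CCL4, in place of 0.33 and 0.175. The T cell-like cholesterol sum was 0.38 of the hepatocyte-like level in the control, 0.75 on the HFD and 0.68 with CCL4. Subtraction thus took a larger share off the 2 models than off the control, which by itself lowers the ratios. On the HFD even Sc5d and Tm7sf2, within 2-fold of the control before, came to 0.47 and 0.44. No count of genes past 2-fold is therefore drawn from it. With CCL4, Sc5d came to 0.55, and Mvk, Fdps and Ebp were not above the T cell-like level.

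Among the 6 SREBP regulators, 2 were at least 2-fold higher and 0 lower on the HFD, and 1 was higher and 2 lower with CCL4, beside 5.68% higher and 6.45% lower of all genes on the HFD and 7.47% and 6.83% with CCL4. Over all hepatocyte-like cells, the SREBP genes themselves stood on opposite sides of the control. Srebf1 had 36.6, 130 and 164 CPM in the control, HFD and CCL4 libraries, 3.56 times (3.31 to 3.84) and 4.49 times (4.19 to 4.83) the control. Within mitochondria-poor clusters the order of the models turned, as the control had 0.13 of the HFD and 0.17 of the CCL4 level of Srebf1. In mitochondria-rich clusters the control had 0.28 and 0.27, with overlapping intervals. Srebf2 had 33.1, 17.5 and 17.9 CPM, 1.89-fold lower (1.66 to 2.16) and 1.85-fold lower (1.63 to 2.09). The HFD and CCL4 levels of Srebf2 over all hepatocyte-like cells did not differ beyond counting error. Srebf2 was past 2-fold in the mitochondria-rich clusters, at 0.48 and 0.46 of the control. In mitochondria-poor clusters Srebf2 on the HFD did not differ from the control beyond counting error, at 0.896 (0.736 to 1.09). With CCL4 it was 0.657 of the control there (0.513 to 0.835). Srebf1 is on chromosome 11 of GRCm38 from 60199089 to 60222581, and 3′ counts do not separate its SREBP-1a and SREBP-1c forms.

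Insig1, a retention protein whose gene is itself an SREBP target, had 893, 473 and 375 CPM, 1.89-fold lower on the HFD and 2.38-fold lower with CCL4. Insig2, the retention protein of the liver that is not driven by SREBPs in the same way, had 297, 244 and 479 CPM, and was the highest with CCL4 at 1.61 times the control (1.57 to 1.66). Scap, the escort, had 14.3, 34.2 and 22.5 CPM, 2.38 times and 1.57 times the control. Stard4, a cytosolic sterol carrier and SREBP-2 target, had 109, 94.9 and 51.2 CPM, and was 2.12-fold lower with CCL4 but 0.53 of the control, within 2-fold, in mitochondria-rich clusters. With the T cell-like level taken off, Srebf1 remained above 2-fold (3.69 and 9.69 times the control) and Insig1 came to 0.34 in both models. The Srebf1 ratios rest on a small remainder, 10.0 CPM in the control after 26.5 CPM was taken off. Insig2 turned below the control with CCL4, to 0.82.

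Srebf2 was not above the T cell-like level in hepatocyte-like cells of any library, and Scap was above it in the CCL4 library alone, so that neither could be read this way. Srebf2 had 124, 127 and 64.4 CPM in plasmacytoid dendritic cell-like cells and 79.6, 35.6 and 32.5 CPM in B cell-like cells, above the hepatocyte-like level in all 3 libraries. It was also above that level in all 3 libraries in T cell-like (56.2, 35.1 and 24.1 CPM) and monocyte/macrophage-like cells (47.3, 38.4 and 32.2 CPM). The same held for cholangiocyte-like cells (52.4, 132 and 53.1 CPM).

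Fatty acid synthesis genes were mostly higher in the HFD library, and in part in the CCL4 library. Of 11 genes with at least 10 CPM, 8 were at least 2-fold higher than in the control and none at least 2-fold lower, beside 5.68% and 6.45% of all genes. With CCL4, 5 were at least 2-fold higher and 1, Acss2, was at least 2-fold lower, beside 7.47% and 6.83%. The median ratios were 2.66 and 1.89, beside 1.02 and 1.00 over all genes, and mitochondria-rich clusters gave 8 higher on the HFD, and 5 higher and 1 lower with CCL4, beside 7.43% higher on the HFD and 6.96% in each direction with CCL4. In mitochondria-poor clusters 9 were higher on the HFD, beside 10.5% of all genes, but 3 with CCL4, beside 10.4%, as Acaca (1.81) and Thrsp (1.90) came under 2-fold.

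Scd1, the stearoyl-CoA desaturase that makes oleate, had 2249, 13780 and 4260 CPM in the control, HFD and CCL4 libraries, 6.13 times (6.07 to 6.18) and 1.89 times (1.88 to 1.91) the control. Fasn, the fatty acid synthase, had 107, 428 and 260 CPM, 4.01 times (3.84 to 4.18) and 2.43 times (2.32 to 2.54). Thrsp (Spot 14) and Mid1ip1 (Spot 14-related), a pair of paralogs whose products act on acetyl-CoA carboxylase, had 165, 750 and 343 CPM and 21.2, 185 and 115 CPM. Mid1ip1 had the largest ratio of the arm in both models, 8.75 (8.01 to 9.57) on the HFD and 5.45 (4.98 to 5.98) with CCL4. In these 4 genes the HFD library was the highest, the control the lowest and CCL4 between.

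Promoters of Fasn and Thrsp are shown for comparison with the cholesterol genes, with the same marks and source. The 2 CCAAT matches of Fasn that overlap, on opposite strands, form 1 run of capitals. Neither holds TCACNCCAC within this window.
Fasn, chr11:120824498-120824797, minus strand: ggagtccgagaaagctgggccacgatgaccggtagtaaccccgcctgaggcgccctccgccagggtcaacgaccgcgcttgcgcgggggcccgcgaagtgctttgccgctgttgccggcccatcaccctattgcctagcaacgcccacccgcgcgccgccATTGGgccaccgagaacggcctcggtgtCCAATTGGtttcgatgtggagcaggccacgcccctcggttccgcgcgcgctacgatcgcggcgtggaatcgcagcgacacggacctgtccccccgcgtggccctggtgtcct
Thrsp, chr7:97417501-97417800, minus strand: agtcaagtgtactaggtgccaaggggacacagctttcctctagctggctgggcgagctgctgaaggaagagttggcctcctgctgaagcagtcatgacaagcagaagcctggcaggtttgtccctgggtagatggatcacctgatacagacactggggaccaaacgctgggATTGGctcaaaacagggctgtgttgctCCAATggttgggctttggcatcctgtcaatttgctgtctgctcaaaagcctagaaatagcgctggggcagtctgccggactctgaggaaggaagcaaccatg

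The carboxylases that make malonyl-CoA differed between the models. Acaca, the cytosolic form used for synthesis, had 19.1, 47.9 and 41.3 CPM, 2.50 and 2.16 times the control. Acacb, the mitochondrial-membrane form that restrains fatty acid oxidation, had 17.4, 46.3 and 12.8 CPM, 2.66 times the control on the HFD but 0.74 times with CCL4. Me1, the malic enzyme that supplies NADPH, had 99.2, 351 and 119 CPM and showed a like split, 3.54 times on the HFD and 1.201 times with CCL4. With the T cell-like level taken off, both came close to the control on the HFD, at 1.15 for Acacb and 1.11 for Me1.

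The enzymes that supply acetyl-CoA stayed within 2-fold of the control on the HFD. Acly, the ATP-citrate lyase, had 192, 199 and 258 CPM, within counting error of the control on the HFD (1.03, 0.99 to 1.08) and 1.34 times with CCL4. Within each set of clusters, Acly was higher on the HFD beyond counting error. The control had 0.82 of the HFD level (0.77 to 0.87) in mitochondria-rich and 0.79 (0.74 to 0.84) in mitochondria-poor clusters. Acss2, the cytosolic acetyl-CoA synthetase, had 165, 199 and 64.1 CPM, 1.21 times the control on the HFD and 2.57-fold lower (2.42 to 2.74) with CCL4. For Acss2 the control had 0.80 of the HFD level in mitochondria-rich and 0.64 in mitochondria-poor clusters. Acss2 was the one gene of the arm that was at least 2-fold lower with CCL4. The arm also held 2 elongases. Elovl5, which acts on polyunsaturated fatty acids, had 164, 378 and 486 CPM, the highest with CCL4 over all hepatocyte-like cells, although in mitochondria-poor clusters it was 4.00 times the control on the HFD and 3.63 times with CCL4. Elovl6, which lengthens palmitate, had 59.0, 107 and 79.7 CPM, the highest on the HFD at 1.81 times the control and 1.35 times with CCL4.

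Pnpla3, a lipid droplet hydrolase and SREBP-1c target, was near the limit of detection, with 3 UMIs in control hepatocyte-like cells, 10 on the HFD and 1 with CCL4. The HFD ratio was 5.35 (1.38 to 30.2), and no ratio is given for CCL4, where both counts were at or under 3.

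With the T cell-like level taken off, the fatty acid sum was 2.50 times the control on the HFD and 1.42 times with CCL4. The T cell-like fatty acid sum was 0.37 of the hepatocyte-like level in the control, 0.69 on the HFD and 0.52 with CCL4. Subtraction thus took a larger share off the 2 models, which by itself lowers the ratios. On the HFD, Fasn (2.19), Elovl5 (2.57), Scd1 (2.79), Thrsp (2.75) and Mid1ip1 (11.2) stayed past 2-fold. Elovl6 (3.89) came past it, and Acaca (1.65), Acacb and Me1 came under it. In the control only 5.88 CPM of Elovl6 and 5.72 CPM of Mid1ip1 remained, so their ratios rest on small remainders. Acly (0.67) and Acss2 (0.52) stood below the control. With CCL4, Thrsp turned from 2.08 times the control to 0.43, as its level in T cell-like cells was 0.86 of that in hepatocyte-like cells. Elovl6 (5.64) came above 2-fold, while Acacb (0.56) and Me1 (0.71) stood below the control. Elovl5 (6.13), Fasn (2.30), Acaca (2.48) and Mid1ip1 (5.08) stayed above it.

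Both models were also set against each other. For the cholesterol arm, CCL4 stood at 0.53 of the HFD level (0.52 to 0.54), with Pmvk at 0.22 and Fdps at 0.25, or 0.37 and 0.29 in mitochondria-rich clusters. Further genes of that arm, Nsdhl, Sqle, Idi1, Mvd and Hmgcs1 among them, were also lower by 2-fold or more. Over all hepatocyte-like cells, the fatty acid arm with CCL4 stood at 0.37 of the HFD level. Acacb (0.28), Scd1 (0.31), Acss2 (0.32), Me1 (0.34) and Thrsp (0.46) were lower by 2-fold or more. The share of all genes past 2-fold was not computed for this pair. Thrsp was past 2-fold in neither the mitochondria-rich nor the mitochondria-poor clusters alone. Acly (1.30) and Elovl5 (1.29) were higher with CCL4 over all hepatocyte-like cells. In mitochondria-poor clusters both were lower with CCL4 than on the HFD. There the control had 0.79 of the HFD and 0.88 of the CCL4 level for Acly, and 0.25 and 0.28 for Elovl5.

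The order of the libraries held cluster by cluster for the cholesterol arm. The control clusters had 5343 CPM (mitochondria-poor) and 7896 CPM (mitochondria-rich), the 3 HFD clusters 1939 to 3099 CPM and the 3 CCL4 clusters 884 to 1817 CPM, so that the ranges of the 3 libraries did not overlap. The fatty acid arm spread more widely. It was 13667 CPM in mitochondria-poor HFD cells, 22553 CPM in the Cyp1a2 and Glul cluster and 25390 CPM in the Foxq1 cluster, for which Scd1 and Fasn were themselves leading genes. CCL4 cells of that same Foxq1 cluster had 11816 CPM, against 3842 CPM in the Hamp2 cluster and 7327 CPM in the G6pc cluster, and the control clusters had 2064 and 4477 CPM. In all 3 libraries the mitochondria-rich clusters were higher in both arms than the mitochondria-poor one, and the part of RNA quality in this was not tested.

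**Figure D3:**
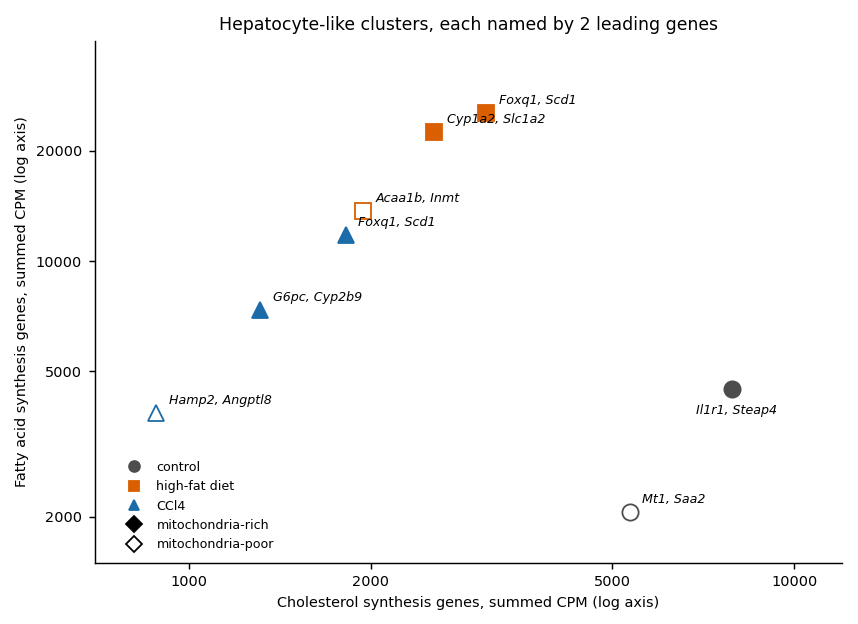
Summed CPM of the fatty acid synthesis genes against that of the cholesterol synthesis genes (both log axes) for each hepatocyte-like cluster and library with at least 50 cells, filled where mitochondria-rich. The 2 control clusters lie at the lower right, the 3 HFD clusters at the top and the 3 CCL4 clusters on the left.

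Both arms were then read along the liver lobule, from the central vein (pericentral) to the portal vein (periportal). Hepatocyte-like cells of each library were ordered by 12 pericentral against 12 periportal landmark genes, and the upper of 3 equal groups was compared with the lower. The cholesterol sum of pericentral cells was 0.87 of that of periportal cells in the control library (0.86 to 0.88), 0.98 on the HFD (0.96 to 1.01) and 0.95 with CCL4 (0.92 to 0.98). The fatty acid sum, most of it Scd1, was 1.16, 1.07 and 1.18. Its single genes did not share that side on the HFD and with CCL4. The median ratio of the 11 fatty acid genes tested was 1.06, 0.91 and 0.80, beside 1.08, 1.01 and 0.92 over all genes. In mitochondria-rich clusters the cholesterol sum was 0.79, 0.76 and 1.21 and the fatty acid sum 1.11, 0.81 and 1.85, so that the CCL4 cholesterol sum and the HFD fatty acid sum changed side. Over all hepatocyte-like cells, none of the members was at least 2-fold higher in pericentral cells, beside 2.66%, 1.59% and 0.739% of all genes in the control, HFD and CCL4 libraries. In periportal cells 1 member, Sqle with CCL4, was at least 2-fold higher, beside 2.21%, 1.04% and 1.03% of all genes.

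Acly, Sqle and Dhcr7 were higher in periportal cells of all 3 libraries. Acly was 1.81 times higher in periportal cells of the control library, 1.87 times on the HFD and 2.00 times with CCL4. Sqle was 1.44, 1.59 and 2.00 times higher in periportal cells, and Dhcr7 1.76, 1.26 and 1.47 times. Me1 lay on the other side, with pericentral ratios of 1.45, 1.34 and 1.33, as did Scd1 with 1.27, 1.12 and 1.36. Acly and Me1 kept these sides in mitochondria-rich clusters of every library, where Acly was 2.36, 3.65 and 1.41 times higher in periportal cells. Sqle and Dhcr7 did not differ between the zones beyond counting error in the mitochondria-rich CCL4 cells. Scd1 did not keep its side, at 0.84 in mitochondria-rich HFD cells and 2.32 in those of the CCL4 library. In the CCL4 library Scd1 had 9635 CPM in the Foxq1 cluster and 5208 CPM in the G6pc cluster. The part of that cluster difference in the ratio of 2.32 was not tested. Among mitochondria-rich cells, at least 2-fold higher in periportal cells were 3 cholesterol and 1 fatty acid gene of the control library, beside 3.45% of all genes (4.79% for pericentral), and 3 cholesterol genes, 1 regulator and 3 fatty acid genes on the HFD, beside 6.03% (5.81% for pericentral). With CCL4, 1 gene, Scd1, was so in pericentral cells, beside 1.15% (0.494% for periportal). Periportal and pericentral cells also differed in depth, with medians of 6258 and 3111 UMIs in the control library, and the part of depth in these ratios was not tested.

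**Figure D4:**
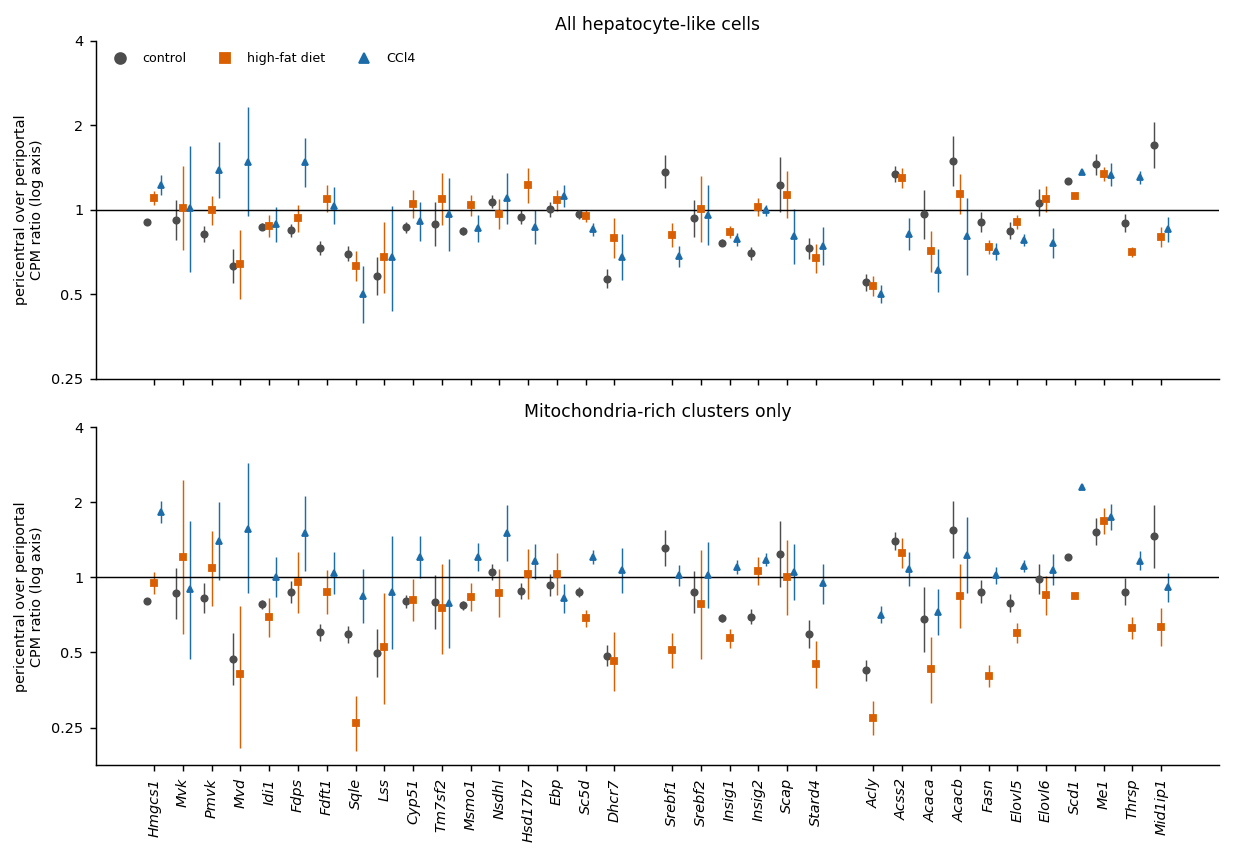
Ratio of CPM in pericentral over periportal hepatocyte-like cells (log axis) for each gene and library, over all hepatocyte-like cells (top) and mitochondria-rich clusters alone (bottom), with 95% counting intervals and genes under 10 UMIs in either group left out. Acly lies below 1 and Me1 above 1 in all 3 libraries, whereas Srebf1 lies above 1 in the control library and below 1 on the HFD.

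Outside hepatocytes, both arms were read beside the hepatocyte markers. In T cell-like cells the cholesterol sum was 0.38, 0.75 and 0.68 of the hepatocyte-like level in the control, HFD and CCL4 libraries and the fatty acid sum 0.37, 0.69 and 0.52, beside marker medians of 0.31, 0.70 and 0.72. Scd1, at 0.32, 0.69 and 0.49, was therefore not above that background in T cell-like cells of the HFD and CCL4 libraries.

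Cholangiocyte-like cells (115, 163 and 214 cells), which line the bile ducts, stood farthest above that background for the cholesterol arm in the HFD and CCL4 libraries. Their 3 cholesterol sums were 1949 CPM in control mice, 2268 CPM under HFD feeding and 1443 CPM after CCL4. This was 1.16 times (1.08 to 1.25) and 0.74 times (0.68 to 0.80) the control, beside 0.33 and 0.175 in hepatocyte-like cells. Other classes also lay nearer the control than hepatocyte-like cells. The ratios were 0.84 and 0.63 in endothelial cell-like, 0.76 and 0.38 in monocyte/macrophage-like, and 0.65 and 0.32 in T cell-like cells. None of these ratios is corrected for RNA from outside the cells. In cholangiocyte-like cells the marker medians were 0.19, 0.47 and 0.60. Divided by the hepatocyte-like level, the cholangiocyte-like cholesterol sum stood at 0.29, 1.04 and 1.25. The 12 hepatocyte markers ranged from 0.36 to 0.56 on the HFD and from 0.42 to 0.73 with CCL4.

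Of the 17 cholesterol genes, 0 in the control library, 9 on the HFD and 8 with CCL4 were higher in cholangiocyte-like than in hepatocyte-like cells beyond counting error. Over all genes with at least 10 CPM in either class, 63.2%, 52.2% and 44.2% were so, and the counts on the HFD and with CCL4 were near these shares. Against mitochondria-rich clusters the counts were 0, 2 (Fdft1 and Lss) and 8, beside 62.8%, 46.4% and 41.8%. Sqle had 133, 157 and 108 CPM in cholangiocyte-like cells, 0.62, 1.78 and 3.78 times the hepatocyte-like level. Fdft1 had 147, 187 and 121 CPM, or 0.58, 1.83 and 2.51 times, and Srebf2 52.4, 132 and 53.1 CPM, or 1.58, 7.54 and 2.96 times. Against the mitochondria-rich clusters alone, the cholesterol sum was 0.25, 0.80 and 1.06 of the hepatocyte level. The fatty acid sum of cholangiocyte-like cells was 0.27, 0.46 and 0.47 of the hepatocyte-like level, within the range of the hepatocyte markers in all 3 libraries. Its single genes did not all stay within that range. Of the 12 genes, 6 in the control library, 3 on the HFD and 1 with CCL4 had intervals wholly above the highest marker. Elovl6 was among them in all 3 libraries. In the control the median of the 12 genes was 0.46 of the hepatocyte-like level, beside a highest marker of 0.29. Mid1ip1 in the control library (89.5 CPM, 4.23 times) was the fatty acid gene above hepatocyte-like cells.

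**Figure D5:**
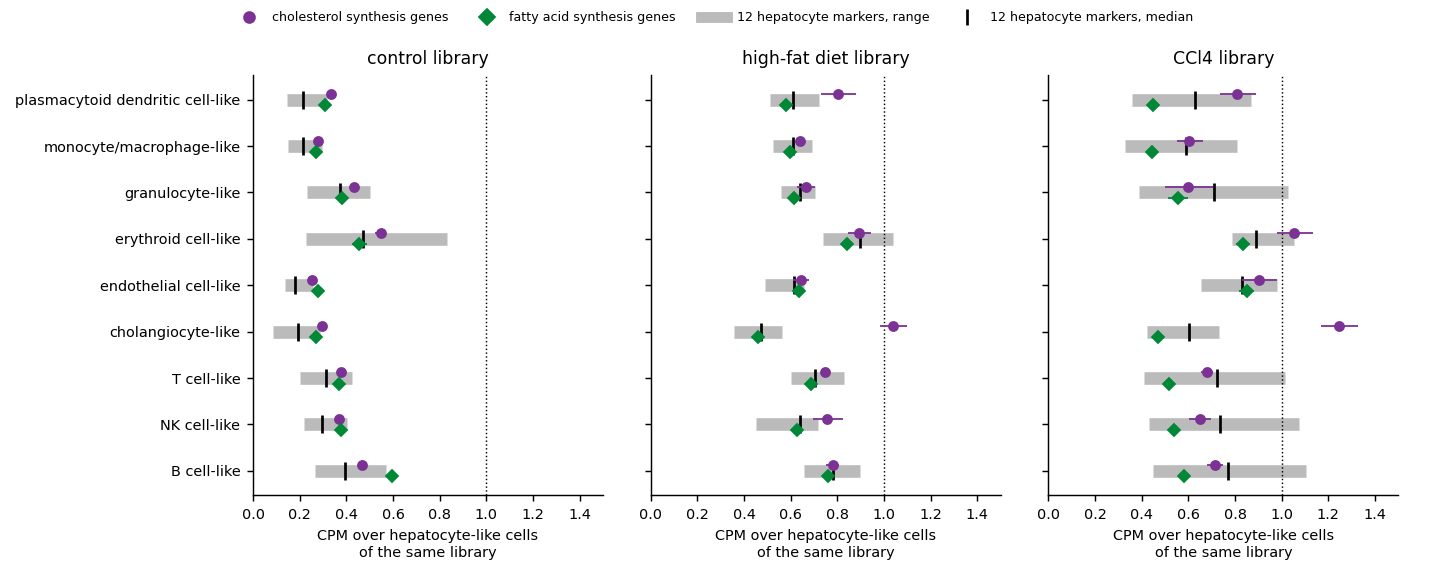
Summed CPM of the cholesterol and fatty acid synthesis genes in 9 cell classes relative to the hepatocyte-like level, with 95% counting intervals, beside the range and median of 12 hepatocyte markers in the same cells. Cholangiocyte-like cells are the class in which the cholesterol genes lie far to the right of the marker range, at 1.04 on the HFD and 1.25 with CCL4.

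Genes next to the pathway were read from 5 lists, in all hepatocyte-like cells unless stated, beside the shares of all genes given above (5.68% higher and 6.45% lower on the HFD, 7.47% and 6.83% with CCL4). Among genes that feed carbohydrate into lipogenesis, Pklr, the liver pyruvate kinase, had 17.3, 46.4 and 64.4 CPM. Khk and Tkfc of fructose breakdown were 2.14 and 2.08 times the control on the HFD and 2.97 and 3.30 times with CCL4. For these 3 genes the CCL4 level was above the HFD level, the reverse of Scd1, Fasn and Thrsp.

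Of 8 further elongation and desaturation genes, 1, Elovl3, was at least 2-fold higher in both models (4.72 and 2.21 times). In mitochondria-poor clusters there were 4 on the HFD, with Fads1, Fads2 and Elovl2, and 2 with CCL4, with Elovl2, beside 10.5% and 10.4% of all genes. Of 8 glycerolipid genes, Acsl1, an acyl-CoA synthetase, was higher in both (2.63 and 3.14 times), and Lpin1, a phosphatidate phosphatase and coactivator, with CCL4 at 719 CPM against 101 CPM in the control and 105 CPM on the HFD. Mitochondria-poor clusters gave 4 glycerolipid genes on the HFD and 3 with CCL4, beside the same 10.5% and 10.4%.

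Sterol transport genes showed another division. Abcg5 and Abcg8, which together export sterols into bile, were 3.12 and 3.40 times the control on the HFD and 1.29 and 1.77 times with CCL4. Npc1, which releases cholesterol from lysosomes, was 2.06 and 2.30 times. Abca1, which loads cholesterol onto apolipoprotein A1, had 318, 130 and 198 CPM and was 0.41 and 0.62 of the control. In all, 3 of 8 measured genes of the list were at least 2-fold higher and 1 lower on the HFD, and 1 of 8 higher with CCL4. In mitochondria-rich clusters with CCL4, Npc1 came under 2-fold (1.90 times the control) and Abca1 past it (0.49). In mitochondria-poor clusters 4 of 8 genes of the list were higher and 0 lower on the HFD, beside 10.5% and 4.83% of all genes. With CCL4, 3 of 7 were higher there, beside 10.4%. Of the genes for SREBP cleavage, sterol-sensing ligases and liver X receptors, 1 of 8, the ligase gene Rnf145, was at least 2-fold higher on the HFD and 0 of 7 with CCL4. In mitochondria-poor clusters it was Rnf139, another ligase gene, in both models, 1 of 7 genes each, beside the same 10.5% and 10.4%.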

How the data were processed

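The deposited values are whole UMI counts without normalization, written by the authors with Cell Ranger 7.2.0 from 10X Genomics 3′ libraries. The study's methods name mm10, the submitters' processing notes GRCm39, and how barcodes were called as cells is not given in the sources used here. Positions are from GENCODE M21 and promoters from RefSeq, both GRCm38, matched by gene identifier or symbol.

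Barcodes under 500 UMIs or 200 genes, or with over 30% mitochondrial UMIs (38, 1 and 0), were left out. Scrublet marked 6 of 36990 barcodes as doublets, so doublets were in effect not removed. Clustering used log counts after scaling each cell to 10000, 2000 variable genes without the 35 members, 30 principal components, 15 neighbours and a Leiden resolution of 1.0. It gave 37 clusters. Names came from 16 marker lists, given when 3 markers of 1 class were among a cluster's 10 leading genes, or otherwise when at least 30% of a list and at least 3 markers were raised 1.2-fold over the other cells, hepatocytes aside, named from leading genes. The naming rule dates from after a first look at the clusters, and a cluster led by Gria3, Prtn3 and Flt3 was left unnamed, as was 1 of 859 cells, 666 of them from the CCL4 library, led by Egfros. Members, lists and tests were chosen with earlier results of these data known.

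Sums of UMIs in a class of 1 library gave CPM. Intervals are at 95%, exact Poisson for levels and exact conditional for ratios. Genes with at least 10 CPM in 1 of 2 libraries were counted past 2-fold, with 3 counts standing for 0. All 35 members are named. The count over the carbohydrate supply list is not reported here. With 1 library per condition there was no test and no p-value. Simulated counts were Poisson draws from the profile of the whole control library at whole-library totals. In them, 100% of 200 genes changed 3-fold among 8111 were recovered for HFD against CON, and 99.0% among 8091 for CCL4. Of the intervals, 95.5% and 94.5% held the true ratio. The draws held no RNA from outside the cells and no difference in cell mix, so they could not gauge either. Alternatives covered the mitochondrial limit, depth, doublets, clustering, scaling, T cell-like background, mitochondria-rich or mitochondria-poor clusters, thresholds and the zone split. Python 3.11.15, scanpy 1.11.5, scipy 1.17.1, numpy 2.4.6, pandas 2.3.3, igraph 0.11.9, scikit-learn 1.9.0 and matplotlib 3.10.9 were used.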

Additional observations from a re-analysis of the deposited data

How the results depend on the processing

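All ratios of the arms between libraries kept their direction under the alternatives run. No paired analysis was possible because each condition had 1 library. Against control, the cholesterol sum on the HFD was 0.308 without the highest doublet scores, 0.357 with each library clustered alone, 0.359 in mitochondria-rich and 0.363 in mitochondria-poor clusters, 0.335 scaled outside abundant genes, 0.345 as a mean over cells and 0.135 with the T cell level taken off. With CCL4 it was 0.170, 0.204, 0.172, 0.166, 0.185 and, with the T cell level taken off, 0.0903, and 0.184 in cells of at least 2000 UMIs. In the same order, the fatty acid sum on the HFD was 4.63, 5.29, 5.37, 6.62, 5.14, 5.38 and 2.50, and 2.67 without Scd1. With CCL4 it was 1.79, 2.09, 1.71 (mitochondria-rich), 1.96 (scaled), 1.89 (mean over cells), 1.42 (T cell level), 1.96 (2000 UMIs) and 1.76 without Scd1. Of the fatty acid genes, 3 in place of 5 were at least 2-fold higher with CCL4 in mitochondria-poor clusters. With the T cell level taken off, Thrsp with CCL4 reversed to 0.432. Clustered alone, 2666 control cells were hepatocyte-like in place of 4965. Of 763 values of single members under the alternatives, 481 moved by less than counting error and 281 by more, and 1 that was past 2-fold changed sides. Members within 2-fold could also change sides, as Insig2 and Me1 with CCL4 and Acss2 on the HFD did with the T cell level taken off. The cause was not tested.

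The zone ratios turned. In mitochondria-rich clusters, the pericentral over periportal cholesterol sum was 0.787, 0.765 and 1.21 in the control, HFD and CCL4 libraries, and the fatty acid sum 1.11, 0.813 and 1.85. With 5 equal groups, the cholesterol sum was 0.847, 0.936 and 1.04, and the fatty acid sum 1.04 on the HFD and 1.32 with CCL4. Without Cyp2e1, Cyp1a2 and Glul, the control cholesterol sum was 0.861, and the fatty acid sum 1.14 in the control and 1.05 on the HFD. Mitochondria-poor clusters and the sum without Scd1 were chosen after seeing the data. With 1 library of 2 pooled mice per condition, no difference could be set against the spread between mice, and intervals cover counting error only. Members under 10 CPM, here Pnpla3, were not resolved at this depth.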
